A study of Mus musculus with 2 samples.

Results

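The nuclear genes of oxidative phosphorylation are described here by the accessible chromatin at their promoters in mouse spleen. Members were protein-coding nuclear genes of the GENCODE vM21 annotation (mm10) chosen by symbol: those that start with Nduf, Uqcr or Atp5, those that start with Cox4 to Cox8, and Sdha to Sdhd, Cyc1 and Cycs. The rule gave 96 gene records with 95 symbols, out of 21938 nuclear protein-coding genes. Atp5o, which encodes the OSCP subunit of ATP synthase, had 2 records. Chromatin was profiled with scFFPE-ATAC, in which nuclei from formalin-fixed paraffin-embedded (FFPE) tissue are cut by a Tn5 transposase adapted to fixed DNA and given cell barcodes by splitting and pooling. The first library came from spleen nuclei prepared without density gradient centrifugation, the step that separates nuclei from debris, and the second came from spleen nuclei tagged in a reaction system of 50 µL. By the methods the mice were C57BL/6J, 8 weeks old and of both sexes, but no animal is named for either library, and no treatment or genotype separates them. The reaction volume of the library without density gradient centrifugation, and whether the 50 µL library had the centrifugation step, are not given for them one by one, so the preparation of the nuclei, the volume and the depth cannot be told apart as sources of any difference.

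Each condition had 1 library, so no test was made, and each share is given with its exact 95% interval (Clopper-Pearson), which covers counting error and nothing else. The library without density gradient centrifugation had 25343 peaks covering 8.81 Mb and the 50 µL library 89382 peaks covering 38.0 Mb. The number of reads and of cells of either library is not given in the sources used here, and peaks were called per library, not per cell. The fold enrichment of a peak is the height of its signal over the local background, and its −log10 q is the strength of the call. Both depend on depth, so they rank peaks within a list and do not measure a change between the libraries. Defining markers of spleen cells were checked by the same promoter rule. Of 15 B cell, T cell and myeloid markers, 5 had a peak without density gradient centrifugation and 13 in the 50 µL library. Of all protein-coding genes, 43.7% had such a peak without density gradient centrifugation and 56.6% in the 50 µL library. All of these markers but Pax5 have CpG-poor promoters, a class described further on. In that class, 20.3% of all genes had a peak without density gradient centrifugation and 33.1% in the 50 µL library. Without density gradient centrifugation, the markers Cd79a and Pax5 of B cells and Cd3e, Cd3g and Cd28 of T cells were among those without a peak. Cd3g and the myeloid marker Lyz2 had no peak in the 50 µL library either. A missing peak in either list does not show that a promoter was closed.

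Oxidative phosphorylation is the last stage of respiration in the inner membrane of mitochondria. Complex I takes electrons from NADH and complex II from succinate, ubiquinone carries them to complex III, the small protein cytochrome c carries them on to complex IV, and complex IV passes them to oxygen. Complexes I, III and IV pump protons, and complex V, the ATP synthase, lets them flow back to make ATP. Most subunits are encoded in the nucleus and a core few in mitochondrial DNA. Complex IV is known for subunits that come in pairs, with 1 form common to most tissues and another favoured in heart and skeletal muscle, testis or lung. Many promoters of these genes are known to carry sites for the transcription factors NRF1, GABPA and YY1.

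Example sequences are shown first, from the RefSeq promoter table (GRCm38.p6, the assembly of mm10), which matched 75 of the 95 symbols. Each is written 5′ to 3′ on the strand of the gene. The first set shows members with an exact match to the core of a known regulator close to the start of transcription (TSS), with the match in capitals: CGCATGCG for NRF1, CCGGAAG or its reverse complement for GABPA, and AANATGGCG for YY1. At least 1 of these matches was present at 28.1% of members, against 15.8% of all promoters. The member share is near the 27.3% of CpG-rich promoters, a class described further on. The sequences of the first set are examples. The members shown are Uqcr11, a small subunit of complex III (chr10:80406801-80406930, minus strand), Atp5k, subunit e of ATP synthase (chr5:108434419-108434548, minus strand), Cox6a1, the common form of subunit 6A of complex IV (chr5:115348952-115349081, minus strand), and Ndufaf8, an assembly factor of complex I (chr11:120098828-120098957, plus strand).
Uqcr11: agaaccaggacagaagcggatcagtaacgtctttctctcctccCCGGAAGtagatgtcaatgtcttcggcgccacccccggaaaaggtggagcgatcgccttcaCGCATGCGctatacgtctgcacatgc
Atp5k: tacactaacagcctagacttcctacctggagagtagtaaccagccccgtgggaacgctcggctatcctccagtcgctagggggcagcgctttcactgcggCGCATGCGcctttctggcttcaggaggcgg
Cox6a1: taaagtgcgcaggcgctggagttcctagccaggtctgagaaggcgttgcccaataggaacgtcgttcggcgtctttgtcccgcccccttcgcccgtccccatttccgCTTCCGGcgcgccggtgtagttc
Ndufaf8: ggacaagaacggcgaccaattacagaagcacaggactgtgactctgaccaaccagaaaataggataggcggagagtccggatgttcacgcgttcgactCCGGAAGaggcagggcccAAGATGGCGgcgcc

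The second set sets isoforms beside each other, with every CpG in capitals. The median observed over expected CpG ratio was lower for the restricted isoforms (0.37) than for the common ones (0.83). Not every family followed this order, as the testis form Cox7b2 had 8 CpG in its RefSeq stretch and the common Cox7b 3. Cox7a1, with few CpG, had a peak, and Atp5g1, with more, had none. Cox8b, the heart and skeletal muscle form of subunit 8 (chr7:140900417-140900546, minus strand), stands beside Cox8a, its common form (chr19:7217587-7217716, minus strand). Cox7a1, the heart and skeletal muscle form of subunit 7A (chr7:30184044-30184173, plus strand), stands beside Cox7a2, its common form (chr9:79759849-79759978, minus strand). Atp5g1 (chr11:96075641-96075770, minus strand) and Atp5g3 (chr2:73911297-73911426, minus strand) encode the same c subunit of the ATP synthase rotor ring.
Cox8b: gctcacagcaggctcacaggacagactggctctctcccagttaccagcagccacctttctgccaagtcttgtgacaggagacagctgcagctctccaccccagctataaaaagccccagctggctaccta
Cox8a: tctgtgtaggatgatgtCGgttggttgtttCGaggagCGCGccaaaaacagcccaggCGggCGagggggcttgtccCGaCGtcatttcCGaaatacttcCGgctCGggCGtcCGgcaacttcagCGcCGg
Cox7a1: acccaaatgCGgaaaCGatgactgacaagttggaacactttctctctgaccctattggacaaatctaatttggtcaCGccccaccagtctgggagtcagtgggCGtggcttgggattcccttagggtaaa
Cox7a2: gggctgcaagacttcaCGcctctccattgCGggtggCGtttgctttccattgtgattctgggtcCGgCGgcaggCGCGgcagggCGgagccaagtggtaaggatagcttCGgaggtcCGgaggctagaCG
Atp5g1: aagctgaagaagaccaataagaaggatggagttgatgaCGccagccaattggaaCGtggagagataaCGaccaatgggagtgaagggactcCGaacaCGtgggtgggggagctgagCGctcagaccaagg
Atp5g3: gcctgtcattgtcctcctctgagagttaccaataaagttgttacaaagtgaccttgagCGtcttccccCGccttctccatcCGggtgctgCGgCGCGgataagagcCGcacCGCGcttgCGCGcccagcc
The printed stretch of Cox8b held 0 CpG, that of Cox8a 15, that of Cox7a1 4 and that of Cox7a2 11. Atp5g1 had 6 and Atp5g3 11.

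A promoter peak was a peak within 1 kb of any annotated TSS of a gene. Of the 96 records, 83 had one without density gradient centrifugation (86.5%, 77.9 to 92.6%) and 87 in the 50 µL library (90.6%, 82.9 to 95.6%). Of all nuclear protein-coding genes, 43.7% had one without density gradient centrifugation and 56.6% in the 50 µL library. Overlapping peaks in both lists were called at 83 of 96 members, against 43.2% of all genes. These were all the members with a peak without density gradient centrifugation, and of all genes with a peak in that list 98.9% had an overlapping 50 µL peak too, so the complete overlap is near the background. The member shares lay above the background in both lists. With the 50 µL list cut to its 25343 strongest peaks, the length of the other list, 86 of 96 members had a promoter peak, against 45.2% of all genes.

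The mitochondrial ribosomal protein genes, which encode the ribosome that translates the mitochondrial subunits, were counted by the same rule. A promoter peak was present at 75 of 78 of them without density gradient centrifugation (96.2%, 89.2 to 99.2%) and at 77 of 78 in the 50 µL library. For the cytosolic ribosomal protein genes the counts were 75 of 80 without density gradient centrifugation and 76 of 80 in the 50 µL library. The difference between the members and these lists was not tested. Without the 8 restricted isoforms, 81 of 88 members (92.0%, 84.3 to 96.7%) had a peak without density gradient centrifugation and 85 of 88 (96.6%, 90.4 to 99.3%) in the 50 µL library.

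**Figure D1:**
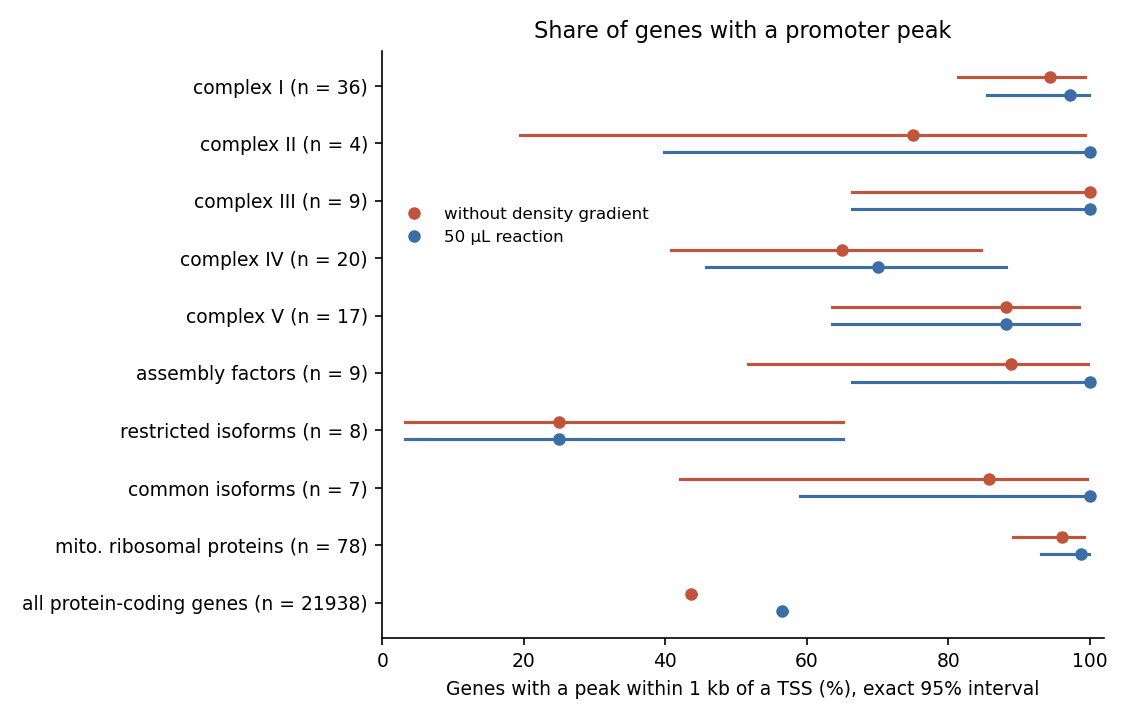
Share of genes that have a promoter peak, in percent, for each complex, the isoform classes, the mitochondrial ribosomal protein genes and all protein-coding genes, with points for the shares and bars for exact 95% intervals. Complex IV and the restricted isoforms have the lowest shares among the members, 65.0% and 25% without density gradient centrifugation.

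Complex I had a peak at 34 of 36 genes without density gradient centrifugation (94.4%, 81.3 to 99.3%) and at 35 of 36 in the 50 µL library (97.2%, 85.5 to 99.9%). Its strongest call in the 50 µL library was Ndufv1, the flavin-binding subunit that takes electrons from NADH, with a fold enrichment of 7.30 without density gradient centrifugation and 7.18 in the 50 µL library. The −log10 q of Ndufv1 was 20.2 without density gradient centrifugation and 91.8 in the 50 µL library, at or above 99.9% of the peaks of the 50 µL list. Ndufb5, an accessory subunit of the membrane arm, had a −log10 q of 19.5 without density gradient centrifugation and 83.8 in the 50 µL library.

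The strongest complex I call without density gradient centrifugation was Ndufa8, an accessory subunit, with a fold enrichment of 10.5 and a −log10 q of 39.6. Ndufa8 in the 50 µL library had a fold enrichment of 7.15 and a −log10 q of 80.5. Ndufv2, an iron-sulphur subunit of the electron input module, came next with a −log10 q of 30.9 without density gradient centrifugation, but its 35.6 in the 50 µL library was below the member median of 50.0. Ndufs5, an accessory subunit, had a −log10 q of 28.8 without density gradient centrifugation and 65.2 in the 50 µL library. Of these, Ndufa8 and Ndufs5 ranked above the member median in both lists, and Ndufv2 in the shorter list only.

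Ndufa6, an accessory subunit, was the 1 complex I gene without a promoter peak in either list. Its nearest peak lay 106278 bp away without density gradient centrifugation and 25907 bp away in the 50 µL library. Its promoter is CpG-rich, with an observed over expected CpG ratio of 0.81. In the 50 µL list it lay in a stretch of 85847 bp without any peak, which also holds TSSs of other genes, among them Wbp2nl, Pheta2 and Smdt1, and Smdt1 has a CpG-rich promoter too. The empty stretch is therefore shared by several genes, and its cause was not tested. Ndufa1, an X-linked accessory subunit, had a peak only in the 50 µL library, with a fold enrichment of 5.59, and the nearest peak without density gradient centrifugation lay 64155 bp away.

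Complex II, the succinate dehydrogenase of the citric acid cycle, has 4 nuclear subunits and none from mitochondrial DNA. All 4 had a promoter peak in the 50 µL library and 3 of 4 without density gradient centrifugation. Sdha, the flavoprotein that oxidizes succinate, had a fold enrichment of 6.25 without density gradient centrifugation and 4.70 in the 50 µL library. Sdhb, the iron-sulphur subunit, had no peak within 1 kb without density gradient centrifugation, where the nearest was 3357 bp away, and a fold enrichment of 4.10 in the 50 µL library. The membrane anchors had higher values than these catalytic subunits. Sdhc had a fold enrichment of 7.76 without density gradient centrifugation and 5.66 in the 50 µL library, and Sdhd had 7.84 without the centrifugation and 5.21 in the 50 µL library. Sdhb was also the 1 subunit of complex II with a CpG-poor promoter, at a ratio of 0.36.

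Complex III was complete in both lists, with a peak at 9 of 9 genes (66.4 to 100%). Of all genes, 43.7% had one without density gradient centrifugation and 56.6% in the 50 µL library. Uqcrq, a small subunit of the complex, had the strongest call without density gradient centrifugation, with a −log10 q of 26.9, and 64.6 in the 50 µL library. Uqcrfs1, the Rieske iron-sulphur protein, had a −log10 q of 23.3 without density gradient centrifugation and 66.5 in the 50 µL library. Uqcrc1, a core subunit, had 22.0 without the centrifugation and 47.2 in the 50 µL library. Uqcr10, a small subunit, had 16.4 without the centrifugation and 63.0 in the 50 µL library, so its place in the order differed between the lists. Cyc1, the cytochrome c1 subunit, had lower values, with 12.9 without density gradient centrifugation and 25.2 in the 50 µL library. Cycs, the somatic cytochrome c that links complexes III and IV, had a fold enrichment of 7.49 without density gradient centrifugation and 5.11 in the 50 µL library. Cyct, the testis form of cytochrome c and not a member by the rule, had no promoter peak in either list.

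Complex IV had the fewest promoter peaks for its size, 13 of 20 without density gradient centrifugation (65.0%, 40.8 to 84.6%) and 14 of 20 in the 50 µL library (70.0%, 45.7 to 88.1%). The genes it lacked in the 50 µL library were all restricted isoforms. Its median −log10 q, 17.9 without density gradient centrifugation and 48.8 in the 50 µL library, lay just below that of all members in each list, and its strongest calls were at subunits used in most tissues. Cox8a had a −log10 q of 29.1 without density gradient centrifugation and 88.2 in the 50 µL library. Cox6a1 had 35.7 without the centrifugation and 82.8 in the 50 µL library. Cox7c, a subunit with no tissue form, had 38.0 without the centrifugation and 66.1 in the 50 µL library, and it was the strongest call of complex IV in the shorter list. Cox7a2 had a −log10 q of 32.9 without density gradient centrifugation and 60.5 in the 50 µL library. Complex IV thus held some of the strongest members and 6 of the 9 records without a 50 µL peak.

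Complex V had a peak at 15 of 17 records in each list (88.2%, 63.6 to 98.5%). Atp5e, the epsilon subunit, had the strongest call of the complex without density gradient centrifugation, with a fold enrichment of 9.25 and a −log10 q of 38.9. Its fold enrichment in the 50 µL library was 5.30 and its −log10 q 59.3. Atp5c1, the gamma subunit of the central stalk, had a −log10 q of 23.3 without density gradient centrifugation and 76.3 in the 50 µL library. Atp5k had 25.9 without the centrifugation and 62.2 in the 50 µL library. The peak of Atp5j2, membrane subunit f, ranked close to that of Atp5k in the 50 µL list, with 21.6 without the centrifugation and 62.4 in the 50 µL library. The 2 records without a peak were Atp5g1 and the second Atp5o record, a long transcript unit whose TSS lay 4614 bp from a peak without density gradient centrifugation and 4586 bp in the 50 µL library. The first Atp5o record had a peak in both lists.

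The assembly factors caught by the rule, Ndufaf1 to Ndufaf8 of complex I and Atp5s, which is related to the ATP synthase but is no core subunit, had a peak at 8 of 9 genes without density gradient centrifugation and at 9 of 9 in the 50 µL library. Ndufaf4 had a −log10 q of 30.7 without density gradient centrifugation, the highest of these genes in that list, and 41.4 in the 50 µL library. The highest in the 50 µL library were Ndufaf8 with 76.3, Ndufaf6 with 72.8 and Ndufaf2 with 68.4. Ndufaf7 with 22.7 and Ndufaf5 with 21.3 came after Ndufaf4 in the list without density gradient centrifugation. Ndufaf3 had a peak only in the 50 µL library, with a fold enrichment of 4.19.

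**Figure D2:**
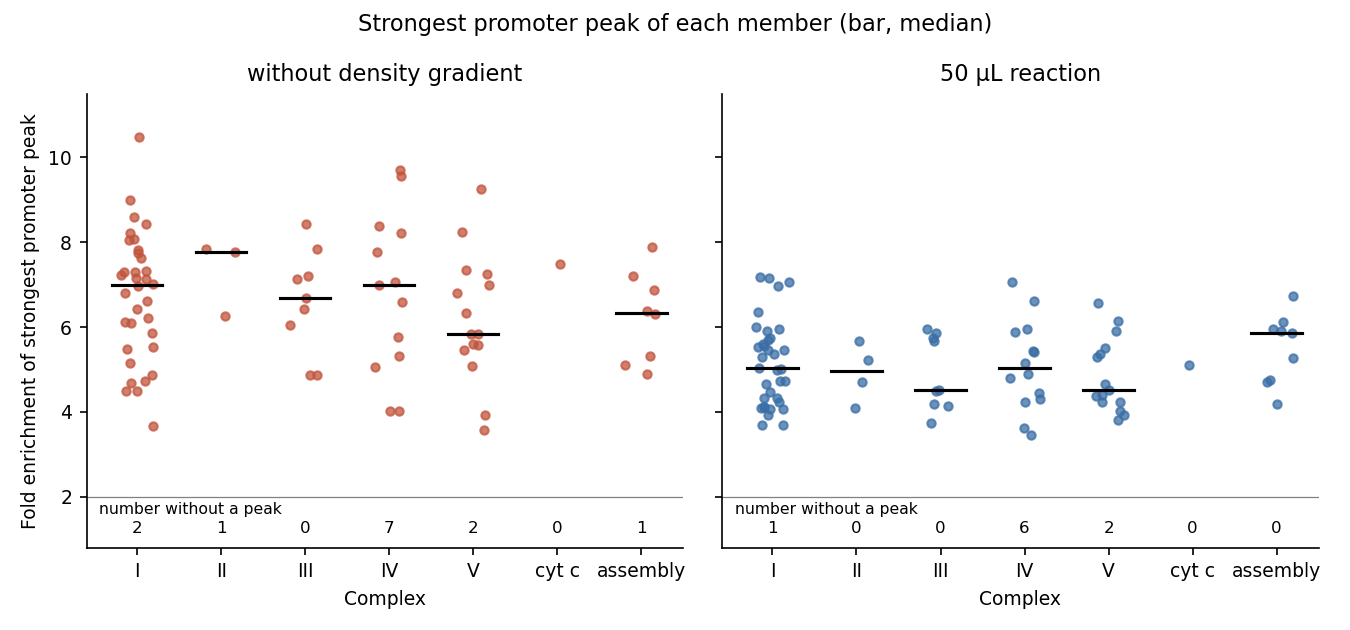
Fold enrichment of the strongest promoter peak of each member by complex, with the library without density gradient centrifugation on the left and the 50 µL library on the right, black bars at the medians and the number of members without a peak under the line. The members spread from 3.57 to 10.5 without density gradient centrifugation and from 3.46 to 7.18 in the 50 µL library, and the complexes overlap throughout.

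Among members with a peak, the median fold enrichment was 6.80 without density gradient centrifugation (quartiles 5.50 and 7.69) and 5.03 in the 50 µL library (quartiles 4.27 and 5.80). Over all protein-coding genes with a promoter peak it was 5.72 in the list without density gradient centrifugation and 4.51 in the 50 µL list. For the mitochondrial ribosomal protein genes it was near that of the members, at 6.70 without density gradient centrifugation and 5.07 in the 50 µL library. For the cytosolic ribosomal protein genes it was 5.93 without the centrifugation and 4.84 in the 50 µL library. By complex, the medians without density gradient centrifugation were 6.99 for complex I, 7.76 for complex II, 6.68 for complex III, 7.0 for complex IV and 5.85 for complex V. In the 50 µL library they were 5.03, 4.95, 4.52, 5.03 and 4.51 for complexes I to V. The complexes differed by less than the range within any 1 of complexes I, III, IV and V, and their order was not the same in the lists. Across the 83 members with a peak in both lists, Pearson's r of fold enrichment between the lists was 0.44 and Spearman's rho 0.40, given as a description since the points share their 2 libraries. Cox4i1, the common form of subunit 4, shows the spread, with a fold enrichment of 4.02 and a −log10 q of 5.28 without density gradient centrifugation. Its fold enrichment in the 50 µL library was 5.95 and its −log10 q 58.7.

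The isoform families were divided by where each isoform is known to be used. Restricted isoforms had a promoter peak in 2 of 8 cases in each list (25%, 3.19 to 65.1%), against 6 of 7 common isoforms without density gradient centrifugation (85.7%, 42.1 to 99.6%) and 7 of 7 in the 50 µL library. Set beside all genes, at 43.7% without density gradient centrifugation and 56.6% in the 50 µL library, the restricted isoforms lie lower and the common isoforms higher, with wide intervals on 8 and 7 genes. The order of the restricted isoforms and all genes turned with the window. Within 3 kb of a TSS, 5 of 8 restricted isoforms had a peak without density gradient centrifugation (62.5%, 24.5 to 91.5%), against 47.7% of all genes, and 6 of 8 in the 50 µL library (75%, 34.9 to 96.8%), against 61.3% of all genes. All 8 restricted isoforms have CpG-poor promoters, a class described further on in which 20.3% of all genes had a peak within 1 kb without density gradient centrifugation and 33.1% in the 50 µL library.

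**Figure D3:**
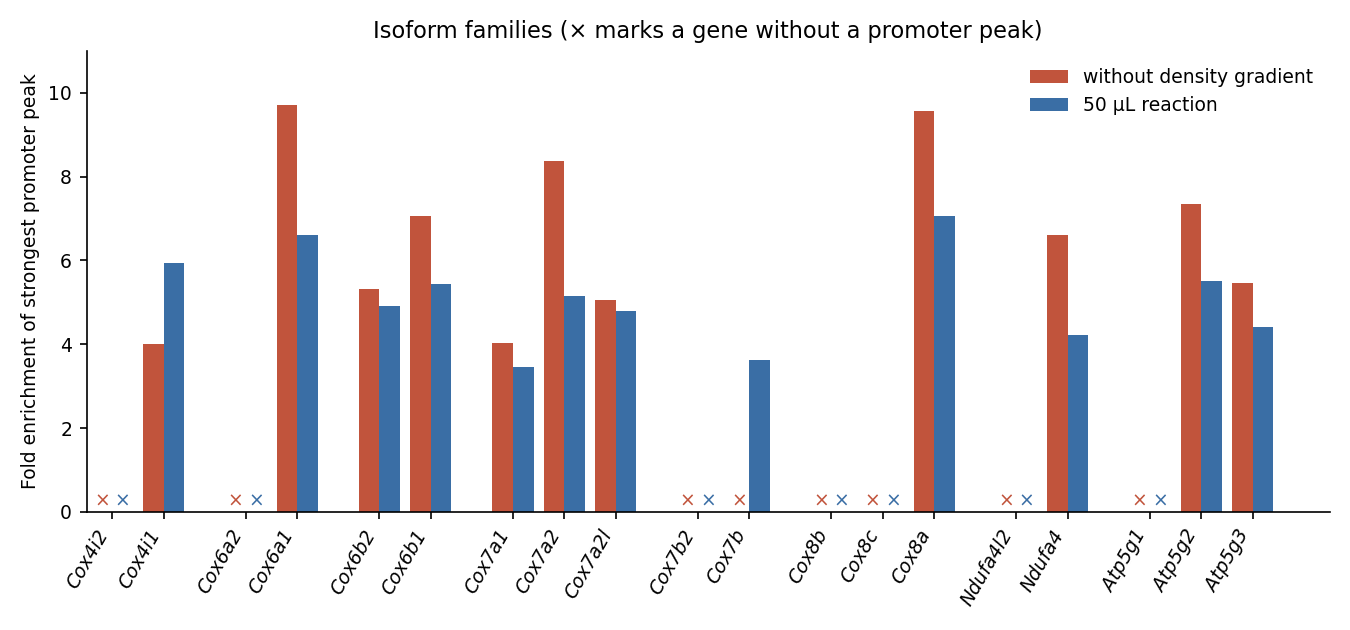
Fold enrichment of the strongest promoter peak for each gene of the isoform families, with 1 bar per library and a cross where no promoter peak was called. Restricted isoforms stand left of the common ones (the 3 Atp5g genes are not divided in this way), bars of the library prepared without the gradient stand left of those of the 50 µL library, and Cox6b2 and Cox7a1 are the 2 restricted isoforms with bars.

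Cox4i2, the form of subunit 4 known from lung and induced by low oxygen, had no promoter peak, with the nearest 57071 bp away without density gradient centrifugation and 1580 bp away in the 50 µL library. Cox6a2, Cox8b and Cox7a1 are the forms of heart and skeletal muscle. Cox6a2 had its nearest peak at 1976 bp without density gradient centrifugation and 1936 bp in the 50 µL library, and Cox8b at 2925 bp without the centrifugation and 2812 bp in the 50 µL library. Cox7a1 differed from both in having a peak over its promoter in each list, with a fold enrichment of 4.03 and a −log10 q of 5.05 without density gradient centrifugation. The fold enrichment of Cox7a1 in the 50 µL library was 3.46 and its −log10 q 20.2. These were the lowest −log10 q of any member with a peak in each list, and the Cox7a1 peak was below the call strength of the strongest 25343 peaks of the 50 µL list.

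Cox6b2, Cox7b2 and Cox8c are the testis forms. Cox6b2 had a peak with a fold enrichment of 5.32 without density gradient centrifugation and 4.90 in the 50 µL library, and its summit lay at −113 bp from the TSS without the centrifugation and at −123 bp in the 50 µL library, a minus sign meaning upstream. Cox8c had its nearest peak at 20386 bp without density gradient centrifugation and 20096 bp in the 50 µL library. Cox7b2 was the most isolated, with its nearest peak at 612943 bp without density gradient centrifugation and 355071 bp in the 50 µL library. Ndufa4l2, the form of the Ndufa4 subunit induced by low oxygen, had peaks just outside the window, at 1781 bp without density gradient centrifugation and 1773 bp in the 50 µL library.

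The common partners Cox6b1, Cox7a2 and Ndufa4 had a peak in both lists, as did Cox7a2l, a relative of Cox7a2 that acts in the assembly of supercomplexes. Cox6b1 had a fold enrichment of 7.06 without density gradient centrifugation and 5.44 in the 50 µL library, each between the median and the upper quartile of the members in that list. Ndufa4 had 6.60 without the centrifugation and 4.22 in the 50 µL library. Cox7a2l had 5.06 without the centrifugation and 4.79 in the 50 µL library. Cox7b was the exception among the common isoforms, with no peak without density gradient centrifugation and a fold enrichment of 3.62 in the 50 µL library. It was also the 1 common isoform with a CpG-poor promoter, at a ratio of 0.37, and it is X-linked. Of the 3 X-linked members, 1 of 3 had a peak without density gradient centrifugation (0.84 to 90.6%), against 43.7% of all genes. In the 50 µL library it was 3 of 3 (29.2 to 100%), against 56.6% of all genes. The share of all X-linked genes was not counted, and the part of X linkage was not tested.

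The c subunit of ATP synthase is encoded by 3 genes that make the same mature protein. Atp5g2 had a fold enrichment of 7.35 without density gradient centrifugation and 5.51 in the 50 µL library. Atp5g3 had 5.45 without the centrifugation and 4.40 in the 50 µL library. Atp5g1 had no promoter peak in either list, with the nearest at 39918 bp without density gradient centrifugation and 15775 bp in the 50 µL library. Like Ndufa6 it has a CpG-rich promoter, at a ratio of 0.85, and it lay in a stretch of 67811 bp without a peak in the 50 µL list that also holds the TSSs of Ube2z and Calcoco2. The cause of that stretch was not tested.

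Markers of the tissues that use the restricted isoforms were counted by the same rule. Of 8 skeletal muscle and heart genes, 2 had a peak without density gradient centrifugation and 4 in the 50 µL library, and of 6 testis germ cell genes 0 had a peak without density gradient centrifugation and 1 in the 50 µL library. Of 4 liver genes, 0 had a peak in either list. Of all genes, 43.7% had a peak without density gradient centrifugation and 56.6% in the 50 µL library. All markers of these lists have CpG-poor promoters. Of all CpG-poor genes, 20.3% had a peak without density gradient centrifugation and 33.1% in the 50 µL library. A peak is a call of accessibility and not of expression, and whether other cell types had a part in the peaks of Cox7a1 and Cox6b2 was not tested.

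Promoter CpG content was taken from 250 bases before to 50 after the principal TSS, and a ratio of at least 0.6 was called CpG-rich. The median ratio was 0.81 for the members, of which 72.9% were CpG-rich, and 0.56 for all protein-coding genes, of which 46.8% were. None of the 8 restricted isoforms was CpG-rich (median 0.37), against 6 of 7 common isoforms (median 0.83). Among CpG-rich members, 66 of 70 (94.3%, 86.0 to 98.4%) had a peak without density gradient centrifugation and 68 of 70 (97.1%, 90.1 to 99.7%) in the 50 µL library, beside 70.3% of all CpG-rich genes without density gradient centrifugation and 83.2% in the 50 µL library. Among CpG-poor members the counts were 17 of 26 (65.4%, 44.3 to 82.8%) without density gradient centrifugation and 19 of 26 (73.1%, 52.2 to 88.4%) in the 50 µL library, beside 20.3% of all CpG-poor genes without density gradient centrifugation and 33.1% in the 50 µL library. The member shares were above the background in both CpG classes, and this was not tested.

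**Figure D4:**
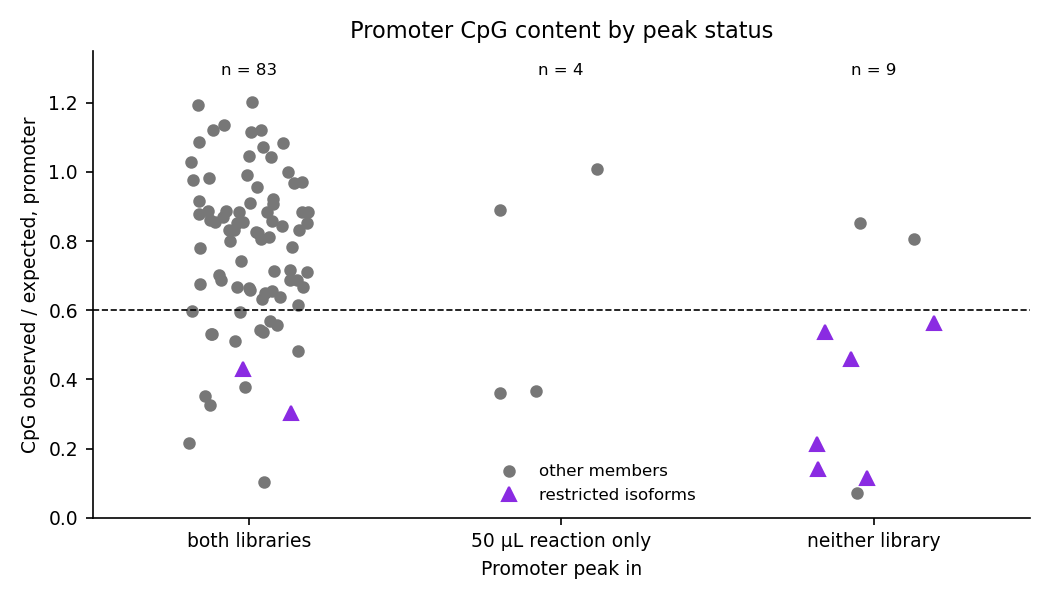
Observed over expected CpG ratio of each member promoter, by whether a promoter peak was called in both libraries (83 members), in the 50 µL library only (4) or in neither (9), with triangles for the restricted isoforms and a dashed line at 0.6. Of the 9 records without a peak, 2 lie above the line, Ndufa6 and Atp5g1.

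The shares of the exact motif matches were read on both strands in the same window of 250 bases before to 50 after the TSS. NRF1 (CGCATGCG) was found at 9 of 96 members (9.38%, 4.38 to 17.1%), against 2.66% of all promoters and 4.53% of the CpG-rich ones. These were Cycs, Uqcr11, Cox6a1, Ndufa11, Atp5g2, Atp5k, Atp5l, Ndufaf4 and Ndufaf5. GABPA (CCGGAAG) was found at 17 of 96 (17.7%), against 11.2% of all promoters and 19.4% of the CpG-rich ones. YY1 (AANATGGCG) was at 6 of 96 (6.25%), against 3.14% of all promoters and 5.76% of the CpG-rich ones. In the window of 500 bases before to 100 after, YY1 was at 16.7% of members against 4.49% of all promoters. The share of CpG-rich promoters was not counted in that window. Within 200 bases around the 50 µL summit, YY1 was at 3.45% of members against 2.98% of all genes with a peak. From 250 bases before to 50 after, at least 1 of these 3 was at 27 of 96 members (28.1%, 19.4 to 38.2%). Such a match was at 15.8% of all promoters and 27.3% of the CpG-rich ones. More than 1 was present at 5 members (5.21%), against 1.18% of all promoters and 2.36% of the CpG-rich ones.

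ESRRA (TCAAGGTCA), the site of an orphan receptor of energy metabolism, was at Sdhd and Atp5g3, 2.08% of members against 0.40% of all promoters. The CREB site (TGACGTCA) was at 6 of 96 (6.25%, 2.33 to 13.1%), against 2.51% of all promoters and 3.99% of the CpG-rich ones. CCAAT, the NFY site, was at 38.5% of members against 38.6% of all promoters. The SP site (GGGCGG) was at 44.8% of members against 45.3% of all promoters and 73.7% of the CpG-rich ones. A match describes letters and not binding. Of the members named here, Uqcr11 held both an NRF1 and a GABPA match in its printed stretch, and the summit of its strongest peak lay at −131 bp from the RefSeq TSS without density gradient centrifugation and at −135 bp in the 50 µL library.

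Member peaks sat close to the start of the gene. The median summit lay at −83 bp from the principal TSS without density gradient centrifugation and at −90 bp in the 50 µL library. It was within 250 bp for 69 of 83 members without density gradient centrifugation (83.1%, against 64.8% over all genes with a peak) and for 74 of 87 in the 50 µL library (85.1%, against 60.1%). The strongest peak covered the TSS of 84.3% of these members without density gradient centrifugation and 94.3% in the 50 µL library, against 62.0% of all genes with a peak without density gradient centrifugation and 69.0% in the 50 µL library. Summits of the same member in the libraries lay a median of 45 bp apart.

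**Figure D5:**
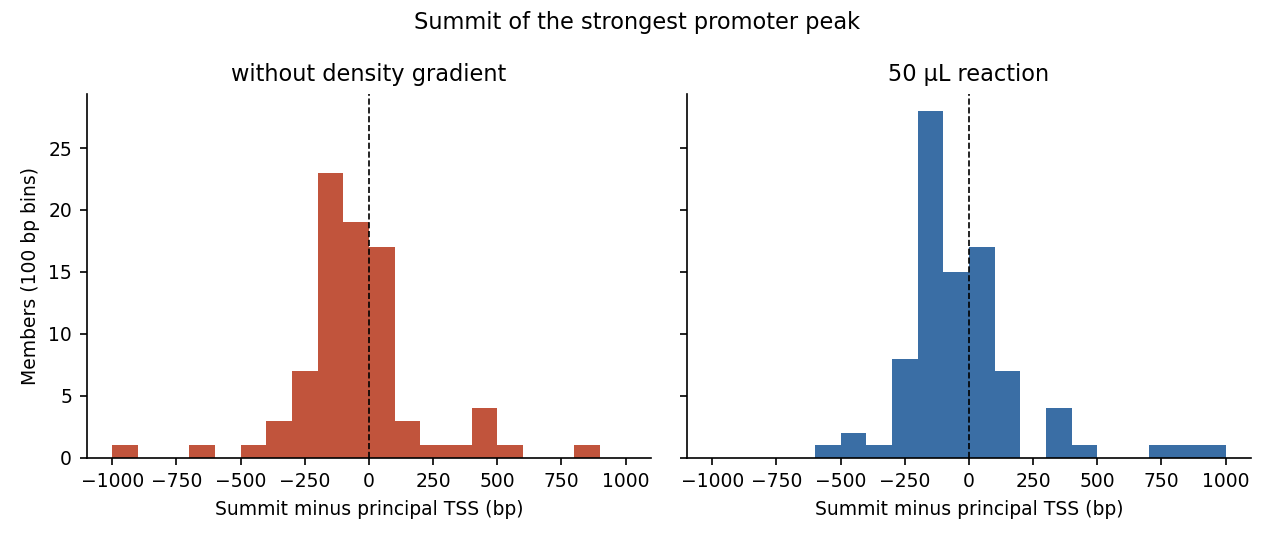
Position of the summit of the strongest promoter peak of each member relative to its principal TSS, in 100 bp bins, with the library without density gradient centrifugation on the left (83 members) and the 50 µL library on the right (87). The bulk lies within 250 bp of the TSS, 83.1% on the left and 85.1% on the right.

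Some members had their strongest peak away from the principal TSS. Ndufa13, an accessory subunit also known as Grim19, had summits at −917 bp without density gradient centrifugation and at 810 bp, downstream, in the 50 µL library, and its second peak in each list lay on the other side. It was also the member closest to the limit of the window, with the nearest peak edge at 610 bp without density gradient centrifugation and 312 bp in the 50 µL library, whereas the first member outside was Ndufa4l2 at 1781 bp without the centrifugation and Cox4i2 at 1580 bp in the 50 µL library. Atp5d, the delta subunit, had its summit 869 bp downstream without density gradient centrifugation and 966 bp downstream in the 50 µL library.

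More than 1 promoter peak was called at 8 of 83 members without density gradient centrifugation (9.64%, against 18.3% of all genes with a peak), namely Cox6a1, Ndufa13, Atp5d, Uqcrb, Ndufb4, Atp5j, Ndufa11 and Ndufb11. In the 50 µL library there were 27 of 87 such members (31.0%, against 48.9% of all genes with a peak). Among them, Sdha, Cox4i1, Atp5g3, Atp5j and Ndufaf6 had 3 peaks each. Those with fewer included Ndufa13, Ndufa5, Ndufb9, Ndufc1, Ndufc2, Ndufs1, Ndufs3, Ndufv3, Cyc1, Uqcr11, Uqcrh, Cox5a, Cox6a1, Cox6b2, Atp5d, Atp5g2, Atp5h, Cycs, Ndufaf3, Ndufaf4 and Ndufaf7. Peaks were counted at any annotated TSS, so some extra 50 µL peaks lay far from the principal TSS. Such a summit lay 20911 bp downstream of it at Sdha, 30282 bp at Ndufs1 and 9544 bp at Ndufv3. At Cox4i1 the extra 50 µL peaks had fold enrichments of 2.28 and 2.59, with summits at −804 bp and 635 bp from the principal TSS.

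Promoters shared with a neighbour were common. A protein-coding gene on the opposite strand started within 1 kb upstream of 29 of 96 members (30.2%, 21.3 to 40.4%), against 9.17% of all protein-coding genes. The strongest peak of 34 of 83 members without density gradient centrifugation and 36 of 87 in the 50 µL library also came within 1 kb of a TSS of another protein-coding gene. These are 41.0% of the members with a peak without density gradient centrifugation, against 24.0% of all genes with a peak there, and 41.4% in the 50 µL library, against 21.4%. Examples were the peaks of Atp5j with Gabpa, which encodes the DNA-binding subunit of GABP, and Sdhd with Timm8b, a chaperone of mitochondrial import. Others were Ndufs6 with Mrpl36 and Ndufb5 with Mrpl47, both of the mitochondrial ribosome, and Ndufa7 with the cytosolic ribosomal gene Rps28. No protein-coding gene on the opposite strand started within 1 kb upstream of Ndufs6 or Ndufb5, so they belong to the count by peaks only. A peak that lies near the starts of both genes cannot be assigned to either gene alone.

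The wider pathway was counted from lists of other genes. Of 42 assembly factors outside the rule, 40 had a promoter peak without density gradient centrifugation (95.2%, 83.8 to 99.4%) and 41 in the 50 µL library (97.6%, 87.4 to 99.9%). The 1 without a peak in either was Cmc1, a copper-binding factor of complex IV assembly. Sdhaf1, an assembly factor of complex II, had a peak only in the 50 µL library, with a fold enrichment of 3.51. Of 16 regulators of these genes and of mitochondrial DNA, 13 had a peak without density gradient centrifugation (81.3%, 54.4 to 96.0%). In the 50 µL library 15 of them had one (93.8%, 69.8 to 99.8%). Of all genes, 43.7% had a peak without density gradient centrifugation and 56.6% in the 50 µL library. Most genes of both lists are CpG-rich, and of all CpG-rich genes the shares were 70.3% and 83.2% in the same order. The intervals of the regulators hold these CpG-rich shares. Twnk, the mitochondrial DNA helicase, had none in either list. Nrf1, the factor whose motif is named above, had a peak only in the 50 µL library, with a fold enrichment of 3.69, and so did Ppargc1a, a coactivator of mitochondrial biogenesis, with 6.03.

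The remaining subunits are encoded by mitochondrial DNA, where the 50 µL list held 3 broad peaks and the list without density gradient centrifugation 0. The 50 µL peaks covered mt-Nd1 and mt-Nd2 (fold enrichment 1.76), mt-Co1 (1.81) and mt-Nd4, mt-Nd5, mt-Nd6 and mt-Cytb (1.82). These enrichments were below that of the strongest promoter peak of any nuclear member in that list, the lowest of which was 3.46, but the weakest additional promoter peak of a member, at Uqcr11, had 1.82 as well. Mitochondrial DNA has no nucleosomes and many copies per cell, so these peaks and the nuclear ones do not measure the same property.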

How the data were processed

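The deposited data are a MACS2 peak list for each of 2 scFFPE-ATAC libraries of mouse spleen (mm10). By the paper's methods, the authors mapped reads with BWA mem, dropped PCR and linear amplification duplicates by a script of their own, ran MACS2 without model or shift at a q-value of 0.01, and took out blacklisted regions. The submitters' notes name BWA, SAMtools, hg38 and mm10. As reads were not shifted to the Tn5 cut, a summit can be some bases off. The filter on cells is described after peak calling, so reads of other barcodes may be included. In the deposited lists, fold enrichment is the ratio of summit pileup to local background, and −log10 p and −log10 q are MACS2 values for the summit. The display score of the authors' files was not used. The depth is unknown.

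Peaks within 1 kb of any TSS of a GENCODE vM21 gene were counted, and the peak with the highest −log10 q stood for the gene. In the 50 µL list, 169 peaks lie off the nuclear reference chromosomes, 3 of them mitochondrial. The principal TSS was that of the APPRIS principal transcript. Complexes and isoform classes were assigned by hand. Members, lists, motifs and rules were chosen with earlier results of these data known. Named were members without a 50 µL peak, isoform families, complex II, cytochrome c, the 3 strongest members of each complex in each list, members with several peaks and listed other genes without a 50 µL peak. Other names (Cyc1, Ndufa1, Ndufaf3, the motif carriers and the genes sharing a promoter) were chosen after their values were seen. A few genes that these rules name are not reported here. Printed sequences from RefSeq hold 30 transcribed bases or fewer. With 1 library per condition no significance test was possible. Alternatives were other thresholds, windows, TSS choices, overlaps and motif windows, and a 50 µL list of equal length. The counting and the motif search were tested on simulated data. Counts were made in Python 3.11.15 (pandas 2.3.3, numpy 2.4.6), intervals with scipy 1.17.1 and figures with matplotlib 3.10.9.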

Additional observations from a re-analysis of the deposited data

How the results depend on the processing

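The counts of members with a promoter peak, and the median fold enrichment of the members, stayed within 1.5 times or within their interval under every alternative that was run, with 1 exception besides the assembly factors, which a count of structural subunits leaves out. Members with overlapping peaks in both libraries numbered 45, against 83 as reported, when the overlap had to cover 50% of each peak. The share of all genes under that overlap rule was not counted. The median width of the strongest member peaks was 495 bp without density gradient centrifugation and 975 bp in the 50 µL library. Over all genes with a promoter peak it was 413 bp without density gradient centrifugation and 798 bp in the 50 µL library, and the part of width was not tested. At a fold enrichment of at least 4, 80 members had a peak without density gradient centrifugation and 79 in the 50 µL library, beside 39.9% of all genes without density gradient centrifugation and 38.4% in the 50 µL library. With the 50 µL list cut to the 25343 strongest peaks, 86 members had one, beside 45.2% of all genes, and Cox7a1 was lost. A window of 3 kb gave 87 members without density gradient centrifugation and 91 in the 50 µL library, with Cox6a2, Cox8b and Ndufa4l2 gained in both lists and Cox4i2 in the 50 µL list. Restricted isoforms with a peak then numbered 5 of 8 without density gradient centrifugation and 6 of 8 in the 50 µL library, against 2 of 8 in each list within 1 kb. The 3 kb shares lay above those of all genes (47.7% without density gradient centrifugation and 61.3% in the 50 µL library) and not below them as within 1 kb. Using the principal TSS only, chosen after seeing the data, gave 83 members without density gradient centrifugation and 87 in the 50 µL library. Motif shares moved with the window, and from 500 bases before to 100 after the TSS they were 27.1% of members for GABPA (against 14.3% of all promoters), 16.7% for YY1 (against 4.49%), 56.3% for SP (against 51.7%) and 53.1% for NFY (against 57.6%). The shares of CpG-rich promoters were not counted in that window. Within 200 bases around the 50 µL summit, the shares were 34.5% for SP (against 46.3% of all genes with a peak) and 27.6% for NFY (against 28.5%), and CREB was found at 1 of 87 members (against 1.53%). No paired analysis was possible because each condition had 1 library. The depth is unknown, so a missing peak in either list cannot be read as a closed promoter.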
